A study of Homo sapiens with 2 samples.

Results

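Most of the genes described here encode proteins at the core of the spliceosome. This assembly of small nuclear RNAs and proteins removes introns from pre-mRNA. Some genes of the LSM series act elsewhere, as given below. The genes were chosen by symbol, with earlier results of these data known. The set holds every listed gene of the SNRPA to SNRPG, SNRNP, SF3A, SF3B, PRPF, LSM and U2AF series. Added by name were SF1, CWC15, CWC22, CWC27, CDC5L, BUD31, PHF5A, EFTUD2 and SART1. Together these came to 66 of the 13219 genes listed in at least 1 library. RNA was sequenced from a human breast line that the labels call 231 cell, a name in common use for the breast cancer line MDA-MB-231, grown in L15 medium with 10% serum. One library (siYBX1) came from cells transfected with a reagent against YBX1, labelled siYBX1, which the design text calls a Smart Silencer. The other (siNC) came from cells given the control siNC, and both were taken at 48 h. With 1 library per group there is no replicate and no test, so every value below compares a pair of libraries and has no error of its own. Wherever 2 levels are set against each other, the siYBX1 library comes first.

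Each small nuclear ribonucleoprotein (snRNP) is built on a small nuclear RNA. U1 reads the start of an intron and U2 its branch point, and the tri-snRNP of U4, U6 and U5 then joins and is remodelled into the catalytic spliceosome. U1, U2, U4 and U5 each carry a ring of short Sm proteins, U6 carries a ring of the related LSM proteins, and long scaffold and helicase proteins such as PRPF8 and SF3B1 hold the RNAs in place. YBX1 encodes YB-1, a cold shock domain protein that binds RNA and DNA and was named for the Y-box, a promoter element with a CCAAT core.

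To show the promoters of members that lie at the ends of the comparison, the 150 bases before the 5′-most RefSeq start are given 5′ to 3′ (GRCh38.p14) for SF3B5 and CWC22, the members with the largest differences each way, for SF3B1, the long partner of SF3B5, and for SNRPG of the Sm ring. Capitals mark CCAAT or its reverse complement ATTGG, and CCGGAAG or its reverse complement CTTCCGG, the core read by ETS family factors. The windows lie at chr6:144095574-144095723 (minus strand, SF3B5), chr2:180007298-180007447 (minus strand, CWC22), chr2:197435094-197435243 (minus strand, SF3B1) and chr2:70293459-70293608 (minus strand, SNRPG). Windows that hold annotated exon bases are not shown.
SF3B5: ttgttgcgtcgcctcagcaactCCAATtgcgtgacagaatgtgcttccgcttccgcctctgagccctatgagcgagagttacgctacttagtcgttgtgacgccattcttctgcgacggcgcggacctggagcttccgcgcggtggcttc
CWC22: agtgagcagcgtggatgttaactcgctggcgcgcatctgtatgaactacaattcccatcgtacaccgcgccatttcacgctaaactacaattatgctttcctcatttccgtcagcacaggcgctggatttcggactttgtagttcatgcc
SF3B1: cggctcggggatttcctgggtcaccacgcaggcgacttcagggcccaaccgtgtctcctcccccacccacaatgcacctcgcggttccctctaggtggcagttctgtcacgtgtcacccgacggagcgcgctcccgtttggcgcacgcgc
SNRPG: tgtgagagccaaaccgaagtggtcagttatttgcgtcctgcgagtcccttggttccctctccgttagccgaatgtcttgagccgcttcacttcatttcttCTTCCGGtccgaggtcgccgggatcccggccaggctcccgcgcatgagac
SF3B5 holds 1 CCAAT, which begins 128 bases before its start, and SNRPG holds 1 CTTCCGG, which begins 50 bases before its start. The windows of CWC22 and SF3B1 shown here hold neither set of letters. Over 250 bases before any of its 3 starts CWC22 does hold CCAAT or ATTGG, and it is counted so below.

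Over the 250 bases before each start, 54 of the 66 members had a promoter entry, and a gene with several starts was counted once if any of them held the letters. CCGGAAG, on either strand, stood in 23 of the 54 members (42.6%), against 18.7% of 10084 other listed genes and 10.2% of all 27305 genes with an entry. It stood in 4 of the 6 Sm ring genes with an entry and in 9 of the 14 of the U2 group. CCAAT, on either strand, stood in 25 of the 54 (46.3%), against 41.7% of the other listed genes and 37.0% of all. The letters GGGCGG, bound by SP1, stood in 61.1% of the members and 74.8% of the other listed genes. The 5 further sets of letters were also searched on both strands: TATAAA (5.56% of members, 8.09% of other listed genes), AAGATGG (3.70% and 4.57%), CACGTG (5.56% and 11.3%), GCATGCGC (9.26% and 5.58%) and CTCGCGAG (1.85% and 2.05%). No set contains another, and adjacent matches can share end letters. The members with CCGGAAG had a median log2 difference of -0.36 (n = 23) and those without it -0.18 (n = 30). For CCAAT the medians were -0.26 (n = 25) and -0.15 (n = 28).

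The targeted gene, YBX1, stood at 38.1 FPKM after siYBX1 and 649 FPKM after siNC. FPKM, fragments scaled to transcript length and library size, were deposited without counts, so the depth is unknown. The siYBX1 library listed 11678 genes and the siNC library 13017, and 2.23% and 12.0% of these lay under 0.5 FPKM. Mesenchymal markers (VIM, CD44, S100A4, CAV1 and AXL) were listed in both libraries, all 5 of 5, with sums of 765 and 553 FPKM. Of the epithelial markers, KRT8, KRT18, KRT19 and EPCAM were listed in both and CDH1 in the siNC library alone, at 0.0668 FPKM. Their sums were 173 and 300.0 FPKM, the other way round from the mesenchymal sums, with KRT8 at 27.7 against 74.7 FPKM and KRT19 at 83.0 against 153 FPKM. Of 5 luminal markers, 2 were listed after siYBX1 and 3 after siNC, with sums of 7.88 and 7.94 FPKM. ERBB2 stood at 5.74 against 5.44 FPKM and GATA3 at 2.14 against 2.34 FPKM, FOXA1 was listed after siNC alone, at 0.164 FPKM, and ESR1 and PGR were listed in neither library. Of 10 hepatocyte markers, 1 was listed after siYBX1 and 9 after siNC, with sums of 40.0 and 55.1 FPKM. SERPINA1 made up the whole of the former sum and stood at 17.0 FPKM after siNC. The other markers listed were in the siNC library alone, with FGB at 12.0 FPKM, ALB at 10.4 FPKM and APOA2 at 9.92 FPKM the highest. The part of these marker differences in the results below was not tested.

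All 66 members were listed in both libraries, and none was listed at 0. They were expressed well above most genes, with median levels of 25.3 FPKM (siYBX1) and 26.9 FPKM (siNC), against 5.91 and 4.74 FPKM over all listed genes. SF3B1, at 36.7 against 55.4 FPKM, and SNRPD2, at 31.1 against 15.8 FPKM, the genes taken as markers of the set, were both well expressed. The highest mean level was that of SNRPB, first among the members in both libraries at 227 against 186 FPKM. Next came SNRPC at 85.2 against 138 FPKM and SF3B6 at 118 against 85.2 FPKM. U2AF2, at 52.8 against 67.8 FPKM, and SNRPG, at 76.1 against 42.3 FPKM, completed the 5 with the highest means. The lowest levels were those of PRPF40B, U2AF1L4, U2AF1L5 and LSM11, all below 3 FPKM in both libraries. Across the 66 genes the order of levels in both libraries was similar, with Spearman's rho = 0.765 (a description over genes, which share the library).

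**Figure D1:**
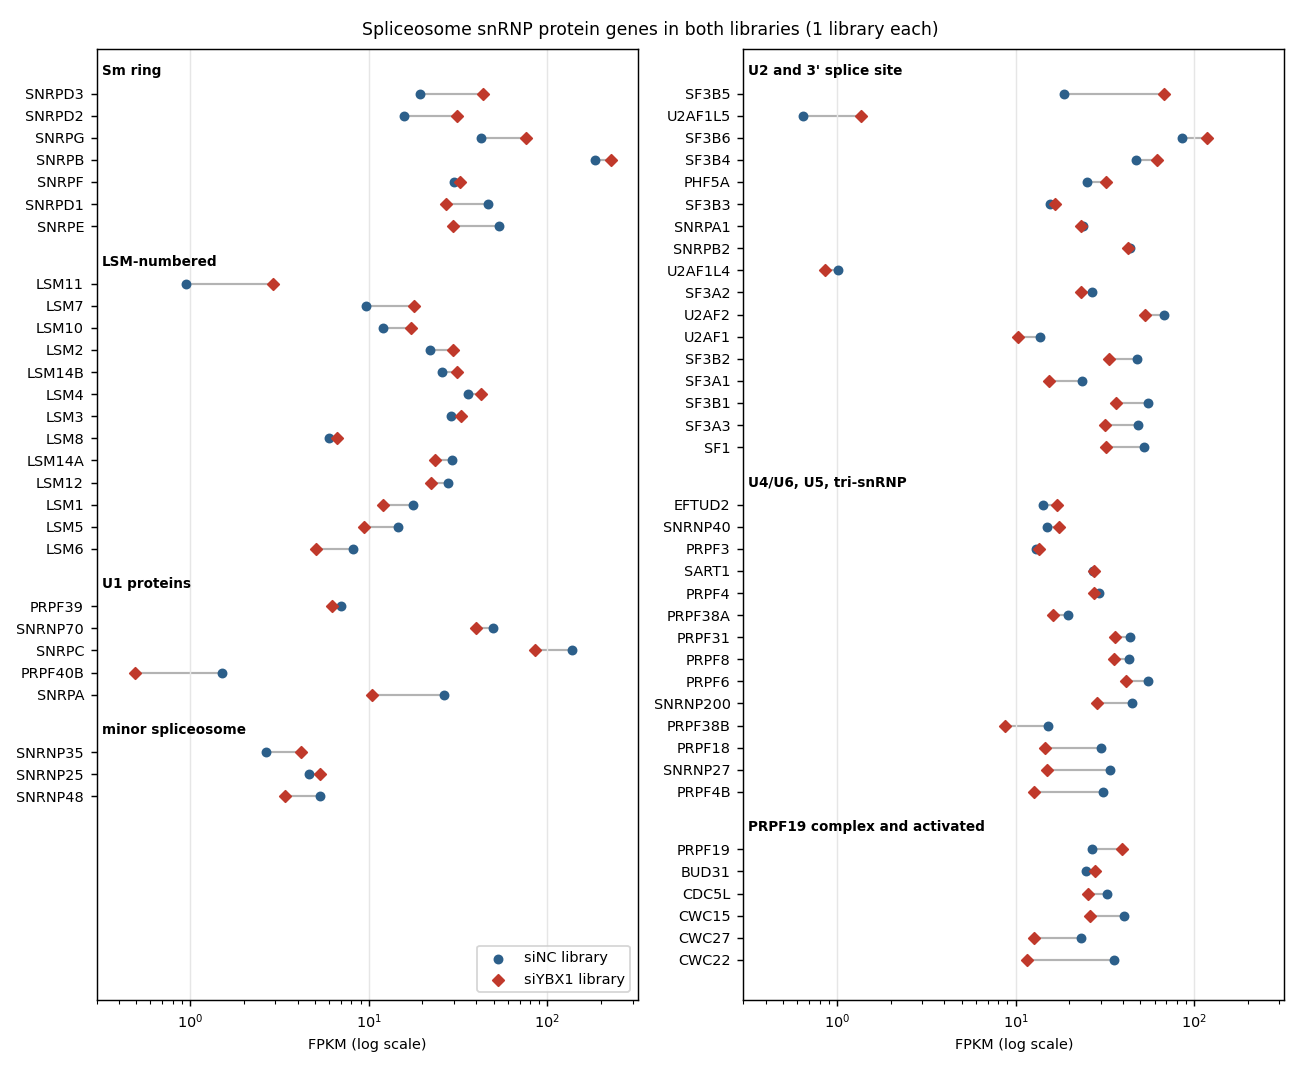
FPKM (log scale) of 65 of the 66 members in the siYBX1 library (red diamonds) and the siNC library (blue circles), 1 library each. Genes are ordered within each group by the difference. SF3B5 has the widest gap among well expressed genes, at 67.4 against 18.8 FPKM, and each of the 5 U1 genes drawn has its diamond to the left of its circle.

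Each difference is siYBX1 minus siNC on the log2(FPKM + 1) scale, for genes listed in both libraries whose mean reached 1 FPKM. A difference of 1 was counted as 2-fold. This scale understates the differences of low genes. It covered 65 members, all but U2AF1L4, a relative of U2AF1 at 0.857 against 1.02 FPKM. SF3B5, SNRPD3 and LSM11 were at least 2-fold higher in the siYBX1 library, 3 of 65 or 4.62%, against 7.20% of all 10548 genes compared. CWC22, SNRPA, PRPF4B and SNRNP27 were at least 2-fold lower, 4 of 65 or 6.15%, against 5.62% of all genes. Both shares lie near or below that background. The members' median difference was -0.26 against 0.02 for all genes, and 38 of 65 (58.5%) lay below 0 against 49.0% of all genes. After scaling to equal summed FPKM, the median of all genes was -0.10 (570 higher and 822 lower, against 759 and 593), the members' median was -0.40, and 1 member was counted higher and 6 lower. With centring on the median of all genes, or with the trend of length and GC content removed, the members' counts were 2 and 5. All genes then stood at 6.97% higher and 5.91% lower with centring, and at 6.49% and 5.45% with the trend removed. In bulk RNA, fewer cells with a transcript and less of it per cell cannot be told apart.

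**Figure D2:**
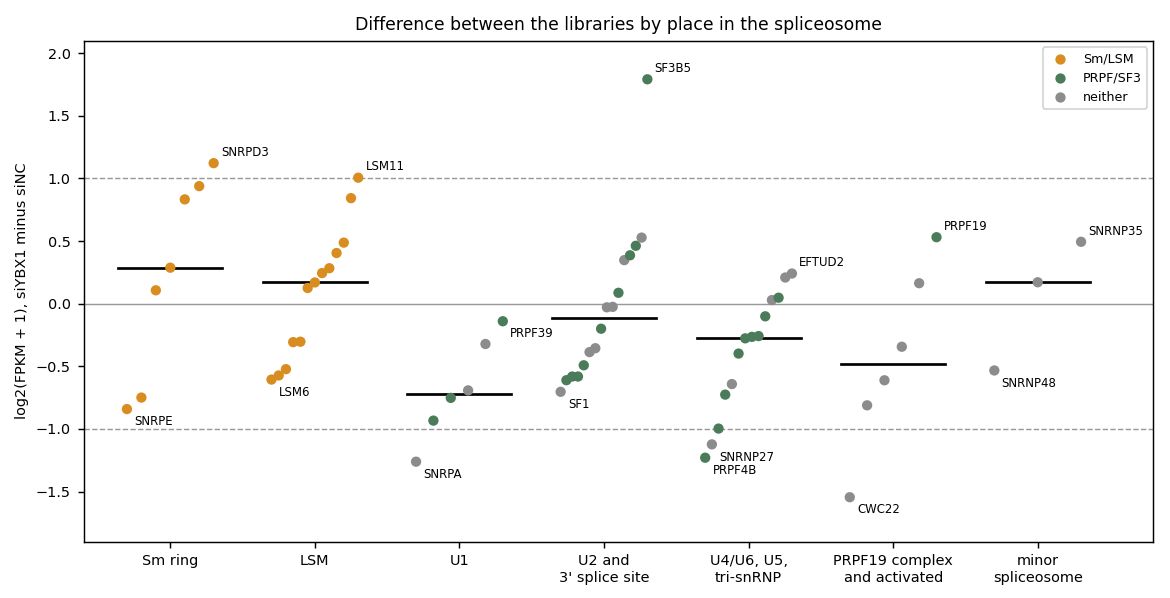
Difference in log2(FPKM + 1), siYBX1 minus siNC, of the 65 compared members by group. Each point is a gene, bars are group medians and dashed lines mark 2-fold. Some LSM-numbered genes act outside the spliceosome. The Sm ring spans -0.84 to 1.12, all 6 U1 genes lie below 0, and the U2 group runs from -0.70 to 1.79.

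The Sm ring, which closes around the Sm site of U1, U2, U4 and U5 RNA with 1 copy of each protein, did not differ as a unit. Its 7 genes had a median difference of 0.29, with 5 above 0 and 2 below. SNRPD3 stood at 43.6 against 19.5 FPKM (log2 difference 1.12), the only gene of the ring past 2-fold. SNRPD2, the partner of SNRPD1 in the ring, stood at 31.1 against 15.8 FPKM (log2 difference 0.94), just under 2-fold. With the trend of length and GC content removed its difference was 0.62. SNRPG stood at 76.1 against 42.3 FPKM (log2 difference 0.83). These 3 were higher in the siYBX1 library, and SNRPB and SNRPF differed little, at 227 against 186 FPKM (0.29) and 32.5 against 30.1 FPKM (0.11). SNRPE went the other way, at 29.7 against 54.0 FPKM (log2 difference -0.84). So did SNRPD1, at 27.1 against 46.3 FPKM (log2 difference -0.75). The order of levels within the ring therefore differed between the libraries, and the median of the ring was 0.038 with the trend of length and GC content removed. SNRPF lay below 0 at equal summed FPKM. The FPKM of SNRPD3 was 1.61 times that of SNRPD1 after siYBX1 and 0.421 times after siNC. For SNRPD2 over SNRPD1 the ratios were 1.15 and 0.340. The highest level in the ring was 8.36 times the lowest after siYBX1 and 11.8 times after siNC. SNRPG, SNRPE and SNRPF have 20, 9 and 4 named pseudogenes, which can take reads from their parent genes, though 0 named pseudogenes of members were listed in either library. SNRPD3 shares 306 exon bases with GGT1 on the same strand, at 1.01 against 0.726 FPKM, and 321 with GUCD1 on the opposite strand, at 7.27 against 2.58 FPKM. The difference of SNRPD3 was just under 2-fold at a pseudocount of 5 (0.99), at equal summed FPKM (0.98) and with the trend of length and GC content removed (0.98).

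The LSM-numbered genes had a median difference of 0.17, with 8 of 13 above 0 and 5 below, against 49.0% of all genes below 0. LSM2 to LSM8 form the nuclear ring that binds the tail of U6 RNA. Within it LSM7 had the largest difference, at 18.0 against 9.60 FPKM (log2 difference 0.84), followed by LSM2 at 29.7 against 22.2 FPKM (log2 difference 0.40). LSM4 (42.7 against 35.9 FPKM), LSM3 (32.7 against 28.9 FPKM) and LSM8 (6.67 against 6.03 FPKM) had log2 differences from 0.13 to 0.24, and LSM8 lay below 0 at equal summed FPKM. LSM6, at 5.05 against 8.21 FPKM (log2 difference -0.61), and LSM5, at 9.45 against 14.5 FPKM (log2 difference -0.57), were lower in the siYBX1 library. LSM1, which takes the place of LSM8 in the cytoplasmic ring that acts in mRNA decay, stood at 12.0 against 17.7 FPKM (log2 difference -0.52). The nuclear ring thus had genes on both sides of 0, as the Sm ring did. With the trend of length and GC content removed, LSM7 stood at 0.39, LSM2 and LSM4 both at 0.08, LSM6 at -0.57 and LSM5 at -0.54, so that LSM6 was then farthest from 0, and the median of the LSM-numbered genes was 0.08. LSM10 and LSM11 replace SNRPD1 and SNRPD2 in the U7 snRNP, which processes histone pre-mRNA ends. LSM10 stood at 17.3 against 12.1 FPKM (log2 difference 0.49), and at 0.14 with that trend removed. LSM11 stood at 2.92 against 0.951 FPKM (log2 difference 1.01), 3.07-fold on the ratio of FPKM but barely past 2-fold on the log2(FPKM + 1) scale. Both U7 genes were thus higher in the siYBX1 library, the latter at low levels in both. LSM11 was no longer past 2-fold at a pseudocount of 5 (0.41), after centring on the median (0.99) and at equal summed FPKM (0.92). LSM14A and LSM14B, which act on mRNAs in P-bodies and not in splicing, stood at 23.5 against 29.3 FPKM and 31.3 against 25.6 FPKM, and LSM12 at 22.4 against 28.0 FPKM. None of these 3 differed by more than 0.31 on the log2 scale.

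All 6 genes of the U1 group lay below 0, with a median difference of -0.72, against 49.0% of all genes below 0. SNRPA, the U1 protein that binds a stem-loop of U1 RNA, stood at 10.4 against 26.4 FPKM (log2 difference -1.26). SNRPC, which helps U1 hold the 5′ splice site, stood at 85.2 against 138 FPKM (log2 difference -0.69). SNRNP70, the U1-70K protein, stood at 39.7 against 49.9 FPKM (log2 difference -0.32). All 3 proteins that belong to U1 alone were therefore lower in the siYBX1 library, with SNRPA past 2-fold. PRPF40B, a relative of a yeast U1 protein, stood at 0.494 against 1.52 FPKM (log2 difference -0.75). The smallest difference of the group was that of PRPF39, another relative of a yeast U1 protein, at 6.24 against 6.98 FPKM (log2 difference -0.14). All 6 also lay below 0 with the trend of length and GC content removed, with a median of -0.74. PRPF39 was then close to 0, at -0.06. Centring and scaling to equal summed FPKM or equal upper quartile gave medians from -0.83 to -0.72. These scalings move all genes nearly alike, so the signs of the 6 could hardly change there. SNRPA shares 89 exon bases with C19orf54 on the opposite strand, at 1.76 against 3.55 FPKM. SNRPC has 18 named pseudogenes. PRPF40B shares 2643 exon bases with FMNL3 on the opposite strand, at 5.64 against 2.73 FPKM, and PRPF39 shares 653 with FKBP3, at 31.4 against 25.2 FPKM.

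In the U2 group the small SF3B subunits stood above 0, and 5 of the 6 larger SF3A and SF3B subunits below it. This split was not planned, and the counts depend on where its line is drawn. SF3B4, taken as small, has a coding length of 1272 bases and a transcript of 2085. SF3A2, taken as larger, has a coding length of 1392 bases and a transcript of 1963. SF3B5, the smallest protein of the SF3B complex and an intronless gene, stood at 67.4 against 18.8 FPKM (log2 difference 1.79), the largest difference of any member and 3.59-fold on the ratio of FPKM. SF3B6, which lies at the branch point, stood at 118 against 85.2 FPKM (log2 difference 0.46). SF3B4 and PHF5A, smaller partners in the same complex, stood at 62.2 against 47.4 FPKM (log2 difference 0.39) and 32.2 against 25.1 FPKM (log2 difference 0.35). All 4 of these small subunits were above 0, with a median of 0.42, and all 4 remained so with the trend of length and GC content removed. They also did under the scalings that move all genes nearly alike, where their signs could hardly change. Their median was smaller at equal summed FPKM (0.28) and with the trend of length and GC content removed (0.24), where PHF5A stood at 0.13, SF3B6 at 0.24 and SF3B4 at 0.25. SF3B1, the large scaffold that clamps the branch point helix, stood at 36.7 against 55.4 FPKM (log2 difference -0.58), and at -0.38 with that trend removed. SF3B2 stood at 33.5 against 47.6 FPKM (log2 difference -0.49), and SF3B3, the other long subunit, at 16.6 against 15.5 FPKM (log2 difference 0.09), which lay below 0 at equal summed FPKM. The SF3A trimer, which joins SF3B to the rest of U2, lay below 0 in all 3 genes, SF3A3 at 31.6 against 48.8 FPKM (log2 difference -0.61), SF3A1 at 15.4 against 23.5 FPKM (log2 difference -0.58) and SF3A2 at 23.3 against 26.9 FPKM (log2 difference -0.20). Levels within the complex therefore stood in a different order. The FPKM of SF3B5 was 1.84 times that of SF3B1 after siYBX1 and 0.339 times after siNC, and that of SF3B6 was 3.21 and 1.54 times. SF3B5 kept at least 2-fold under all 11 alternatives that include it, from 1.39 to 1.84. Several of these only change which genes are kept or summed, and leave its value at 1.79.

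The remaining genes of the group read the branch point and the intron end or belong to U2 itself. SNRPA1 and SNRPB2, which bind a U2 stem-loop together, were nearly equal in both libraries, at 23.3 against 23.8 FPKM and 42.7 against 43.6 FPKM. SF1, which first marks the branch point before U2 arrives, stood at 31.9 against 52.6 FPKM (log2 difference -0.70), the lowest of the group. U2AF2, the reader of the polypyrimidine tract, stood at 52.8 against 67.8 FPKM (log2 difference -0.36). Its partner U2AF1, the reader of the terminal AG, stood at 10.3 against 13.8 FPKM (log2 difference -0.39). All 3 early readers were thus lower in the siYBX1 library, each by less than 2-fold. U2AF1L5 is a near-identical copy of U2AF1, so their reads can be exchanged, and its 1.37 against 0.644 FPKM is uncertain. Summed, the pair came to 11.7 against 14.4 FPKM.

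Of 14 genes of U4/U6, U5 and the tri-snRNP, 10 lay below 0, with a median of -0.27, against 49.0% of all genes below 0. The farthest were accessory proteins of the tri-snRNP and not its scaffolds. PRPF4B, the kinase that phosphorylates tri-snRNP proteins, stood at 12.7 against 31.0 FPKM (log2 difference -1.23). SNRNP27, a short tri-snRNP protein, stood at 14.9 against 33.7 FPKM (log2 difference -1.12). PRPF18, which acts in the second catalytic step, stood at 14.7 against 30.3 FPKM, 2.06-fold lower on the ratio of FPKM. Its log2 difference of -0.997 was just short of 2-fold, and with the trend of length and GC content removed it was -1.01. PRPF38B stood at 8.75 against 15.1 FPKM (log2 difference -0.73) and its relative PRPF38A, which joins at the B complex, at 16.2 against 19.5 FPKM (log2 difference -0.26). SNRNP27 shares 237 exon bases with MXD1 on the same strand (1.82 against 2.42 FPKM), and its difference was -0.96 at a pseudocount of 5. PRPF18 shares 783 with AL157392.5, also on the same strand, at 0.224 against 0.213 FPKM.

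The U5 core held genes on both sides. PRPF8, the scaffold around the catalytic RNA, stood at 35.5 against 43.2 FPKM (log2 difference -0.28). SNRNP200, the helicase that unwinds U4 from U6, stood at 28.5 against 45.0 FPKM (log2 difference -0.64), and PRPF6, which bridges U5 and U4/U6, at 41.7 against 55.2 FPKM (log2 difference -0.40). The GTPase EFTUD2, at 17.0 against 14.2 FPKM (log2 difference 0.24), and SNRNP40, at 17.6 against 15.1 FPKM (log2 difference 0.21), stood on the other side. None of these 5 reached 2-fold. The U4/U6 proteins PRPF3, PRPF4 and PRPF31 stood at 13.5 against 13.1 FPKM, 27.4 against 29.4 FPKM and 36.3 against 43.8 FPKM, and the tri-snRNP protein SART1 at 27.6 against 27.1 FPKM. These 4 differed by no more than 0.26 on the log2 scale, and PRPF3 and SART1, both just above 0, lay below it at equal summed FPKM and with the trend removed.

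Among proteins that enter with the PRPF19 complex or the activated spliceosome, the CWC genes were the lowest. CWC22, which brings the exon junction complex helicase to the spliceosome, stood at 11.5 against 35.6 FPKM (log2 difference -1.55), the lowest of all members. CWC27, a cyclophilin-like protein that forms a pair with CWC22, stood at 12.8 against 23.1 FPKM (log2 difference -0.81), and CWC15 at 26.2 against 40.5 FPKM (log2 difference -0.61). CDC5L, a core subunit of the complex, stood at 25.5 against 32.7 FPKM (log2 difference -0.34). On the other side were BUD31, at 27.9 against 24.8 FPKM (log2 difference 0.16) and below 0 with the trend removed, and PRPF19, the ubiquitin ligase that names the complex, at 39.2 against 26.8 FPKM (log2 difference 0.53). CWC22 kept at least 2-fold under all 11 alternatives that include it, from -1.68 to -1.30, though several of these leave its value unchanged. BUD31 shares 189 exon bases with PDAP1, at 78.7 against 128 FPKM, on the opposite strand. It also shares 919 with PTCD1, at 2.74 against 3.58 FPKM, on that strand.

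The 3 proteins of the minor spliceosome, which removes a rare class of introns, were low in both libraries. SNRNP35 stood at 4.16 against 2.66 FPKM (log2 difference 0.49), SNRNP25 at 5.35 against 4.64 FPKM (log2 difference 0.17) and SNRNP48 at 3.38 against 5.34 FPKM (log2 difference -0.53). SNRNP35 shares 2063 exon bases with RILPL1 on the opposite strand.

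Set against each other, the short Sm and LSM genes had a median difference of 0.21 (20 genes, 13 above 0) and the PRPF and SF3 genes one of -0.27 (22 genes, 6 above 0), 0.48 apart. Their median coding lengths were 363 and 1822.5 bases, and their median transcript lengths 1835.5 and 3233 bases. Sm and LSM transcripts reached 6584 bases. The 23 members in neither set had a median transcript length of 1905 bases and a median difference of -0.34. Over all 10548 genes, 5383 lay above 0. Transcript length moved with the difference over all genes too. With genes in 10 equal bins of transcript length, the median was 0.22 in the shortest bin and -0.23 in the longest, and Spearman's rho between transcript length and difference was -0.368 over the 65 members and -0.199 over 10508 genes with a length, both as descriptions over genes of the same pair of libraries. Removing the trend of transcript length and GC content over all genes left Sm/LSM and PRPF/SF3 medians of 0.08 and -0.36, still 0.44 apart. That trend includes neither coding length nor exon number. Between coding length and difference, rho was -0.366 over the 65 members and -0.251 over the 10508 genes. For exon number it was -0.447 and -0.230. The part of coding length and exon number in the gap was not tested. SF3B5 and SF3B6, the PRPF/SF3 genes in the shortest bin, were higher in the siYBX1 library, and SNRPE, also in that bin, was lower. In the shortest bin the 15 members had a median of 0.35 beside 0.22 for all its genes. In the second bin the 11 members had a median of -0.32 beside 0.20, and in the third the 8 members had one of -0.23 beside 0.10. SNRPA and SNRNP27, each past 2-fold lower, belong to the second bin.

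**Figure D3:**
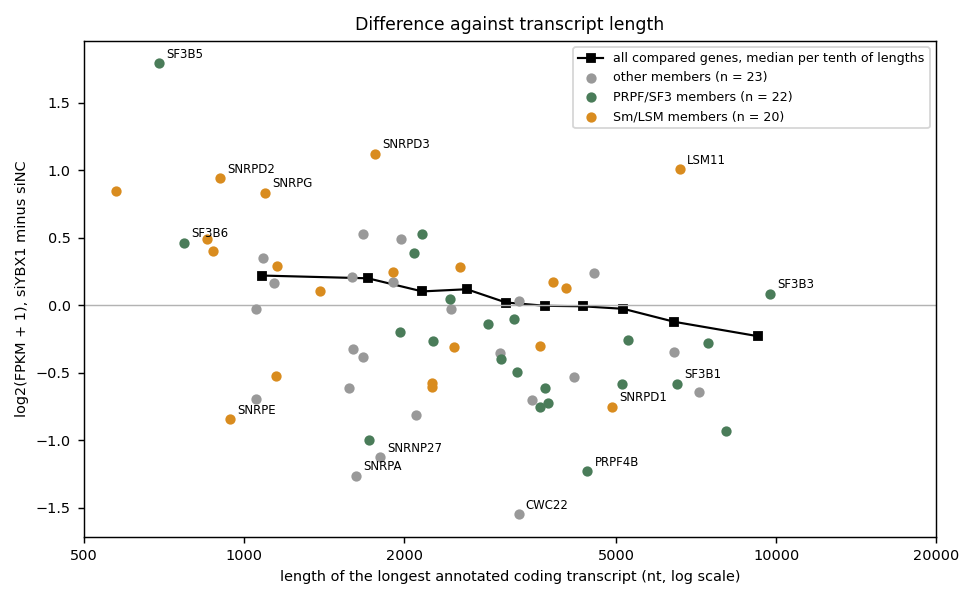
Difference in log2(FPKM + 1), siYBX1 minus siNC, of the 65 compared members against the length of their longest annotated coding transcript (log scale), with points coloured by set and black squares for the median of all compared genes in each of 10 length bins. The squares go from 0.22 to -0.23, SF3B5 lies far above them at 1.79, and SNRPA, SNRNP27 and CWC22 lie far below.

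Genes that act beside the members were described from lists of 89 names, of which 87 were compared. Of these, 6 reached 2-fold in the higher direction and 7 in the lower, 56 lay below 0, and their median was -0.14. Over all compared genes 7.20% were higher, 5.62% lower and 49.0% below 0, so the counts of higher and lower neighbours lie near that background. The 14 genes that load the Sm ring onto RNA, the SMN complex and the methylosome, had a median of 0.02, and of them 3 were higher and 1 was lower. STRAP, a subunit of the SMN complex, stood at 69.9 against 25.7 FPKM (log2 difference 1.41), GEMIN7, another subunit, at 12.0 against 3.70 FPKM (log2 difference 1.47) and WDR77, the partner of PRMT5 in methylating Sm proteins, at 27.5 against 10.8 FPKM (log2 difference 1.27). Thus the assembly machinery, like the ring itself, held genes on both sides. DDX20, the helicase of the SMN complex, stood at 2.79 against 6.90 FPKM (log2 difference -1.06). The 16 other proteins associated with U1 and U2 had a median of -0.58, with 14 below 0, 3 at least 2-fold lower and 0 higher. RBM25, which acts on splice site choice, was the lowest of all neighbours, at 10.7 against 34.9 FPKM (log2 difference -1.61). It lay on the same side as the 6 U1 members, as did LUC7L2, a relative of a yeast U1 protein, with a log2 difference of -1.18. Of 13 other proteins of the tri-snRNP and B complex, 2 were higher and 1 was lower, and the median was -0.12. UBL5, a short ubiquitin-like protein, stood at 47.4 against 12.1 FPKM (log2 difference 1.89), the highest of all neighbours, and PPIH, the cyclophilin of U4/U6, at 52.3 against 17.0 FPKM (log2 difference 1.56). The 13 genes of snRNA export, capping and recycling had 1 higher and 1 lower, with a median of -0.09. The 19 other PRPF19 complex and catalytic step proteins had 0 higher and 0 lower, with a median of -0.08, and the 5 of the exon junction complex core likewise, with -0.05. The 7 other minor spliceosome proteins had a median of -0.28 and 1 lower, ZRSR2, the reader of the minor intron end, at 5.31 against 14.7 FPKM (log2 difference -1.31).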

How the data were processed

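For each library the authors deposited gene-level FPKM, already scaled for length and library size, per the file headers. Tools named in the submitters' processing notes are HISAT2 2.1.0, StringTie 1.3.3 and cutadapt 1.17, with the build GRCh37. The sources used here give no annotation release, strand handling or rule for listing a gene.

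Members and lists were chosen with earlier results of these data known. The rule for named genes takes SF3B1, SNRPD2, every member past 2-fold, the highest and lowest of each role group and the 5 highest means. Other members and neighbours complete each complex and were added after their values were seen, as were the promoter motifs and SNRPG's promoter. Lengths, GC content, exons, overlaps and pseudogene names came from GENCODE 29 on GRCh38, so no coordinates of the authors' build are given. Lengths are those of the longest coding transcript, whichever is expressed, and 99.6% of compared genes had one. Promoters are RefSeq's on GRCh38.p14, matched by symbol. The length and GC trend is a least-squares fit on spline terms, 5 for each variable (statsmodels 0.14.6, patsy 1.0.2). The calculation was also run on simulated data with known changes, a length trend without a GC trend, and an assumed noise. That run checks the code and says nothing about the noise of these libraries. In all, 13 alternatives were tried. A member and a neighbouring gene, both included in the counts and medians, are not reported here by name.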

Additional observations from a re-analysis of the deposited data

How the results depend on the processing

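Of the 13 alternatives, most left the counts within 1.5 times and the medians within 0.1 (log2), a tolerance set because no replicate spread exists. Several of them left the members' values unchanged or nearly so. These were no filter on low values, genes listed in 1 library taken as 0, shared symbols summed and equal upper quartile. They therefore say little about how firm the counts and medians are. The settings that only redefine the sets give no counts. At a pseudocount of 5, 1 of 65 members was counted higher and 3 lower, against 2.98% and 1.98% of all genes. At a pseudocount of 0.1, 3 members were counted higher and 6 lower, against 10.4% and 8.77% of all genes. At the same total FPKM, 1 of 64 was counted higher and 6 lower, against 5.40% and 7.79% of all genes. The medians of the members, the Sm/LSM genes and the PRPF/SF3 genes were then -0.40, 0.064 and -0.41. That scaling moves every gene's difference by its own construction. With the length and GC trend removed, the Sm/LSM median was 0.080, and the cause was not tested. With the 21 members that overlap another listed gene left out, 2 of 45 were counted lower, against 5.61% of all genes. SNRPA and SNRNP27 are among those left out. The gap between the Sm/LSM and PRPF/SF3 medians ranged from 0.38 to 0.51, and was 0.50 with members split by transcript length. Centring and scaling to equal total FPKM or upper quartile shift both medians nearly alike, so they could hardly move this gap. It also stayed at 0.48 where a setting left the genes of both sets and their values unchanged. No paired analysis was possible because each group has 1 library. SNRPD2 ranged from 0.62 to 0.98 and SF3B1 from -0.73 to -0.38 over the alternatives. Over all genes, 1097 were counted higher and 925 lower at a pseudocount of 0.1, and 314 and 209 at a pseudocount of 5, against 759 and 593. Unknown depth limits all values of low genes.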
